A study of Rattus norvegicus with 20 samples.

Results

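Glutathione transferases were followed in visceral white adipose tissue of rats under mild calorie restriction (CR). The 10 genes were named members of the family, chosen with earlier results of these data known: Gstz1, Mgst1, Mgst2, Gstm1, Gstm2, Gstt1, Gstt2, Gstp1, Gstk1 and Gsta4. Each had 1 probe set on the array, all 10 passed the filter on low signals, and they stood among 10411 genes with a probe set of 1 symbol, 7113 of them tested. Male Wistar rats, an outbred strain, were bought at 5 weeks of age, entered the experiment at 6 weeks and ate the purified diet AIN-93G. Controls received the full recorded intake, and restricted groups received 5%, 10%, 20% or 30% less, for 1 week or 1 month. Tissue was taken after a 16 h fast. Each of the 10 groups was 5 rats whose RNA was combined, and the combined RNA, once labelled, was split over 2 Affymetrix chips. A group was therefore measured as 1 pool, its 2 chips were technical repeats, and p-values measured the spread between pools.

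Glutathione transferases join the tripeptide glutathione to reactive electrophiles such as aldehydes from oxidised lipids, drugs and plant compounds. Soluble forms fall into classes named by Greek letters (alpha, mu, pi, theta, zeta), the kappa form lies in mitochondria and peroxisomes, and the MAPEG forms are small membrane proteins of unrelated origin. Several have a second task: the zeta form is an isomerase of tyrosine breakdown, and Mgst2 can make leukotriene C4. Fat tissue meets many lipid aldehydes because its stored lipid can be oxidised, and the alpha form Gsta4 is known for clearing hydroxynonenal. Many genes of the family carry the antioxidant response element, a DNA motif bound by the factor NRF2.

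RefSeq promoter windows of the assembly GRCr8, running from 250 bases before to 50 after a gene's start, were found for 7 of the 10 genes. Mgst2, Gstt1 and Gstt2 had no entry. The core of the antioxidant response element, TGACNNNGC on either strand, was in 2 of the 7 windows and in 12.1% of 33469 promoters. The xenobiotic response element core, GCGTG, was also in 2 of the 7 (Gstp1 and Gsta4) and in 29.7% of all. The 2 windows with the antioxidant core are shown because their genes lay on opposite sides of the controls, Gstz1 above and Gstp1 below, in all 8 restricted pools. Capitals mark the core, which in Gstz1 reads on the opposite strand and begins at position -231 from the start, and in Gstp1 begins at -61. The Gstz1 window is chr6:112525356-112525655 on the plus strand and the Gstp1 window is chr1:210769656-210769955 on the minus strand. A match of letters is a description of the window and not a bound site.
Gstz1: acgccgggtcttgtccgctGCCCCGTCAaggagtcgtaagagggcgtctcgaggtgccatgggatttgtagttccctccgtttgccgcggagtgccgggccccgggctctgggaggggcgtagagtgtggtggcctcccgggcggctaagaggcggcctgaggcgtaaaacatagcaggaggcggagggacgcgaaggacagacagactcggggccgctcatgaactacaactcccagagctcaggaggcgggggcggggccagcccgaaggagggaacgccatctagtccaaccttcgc
Gstp1: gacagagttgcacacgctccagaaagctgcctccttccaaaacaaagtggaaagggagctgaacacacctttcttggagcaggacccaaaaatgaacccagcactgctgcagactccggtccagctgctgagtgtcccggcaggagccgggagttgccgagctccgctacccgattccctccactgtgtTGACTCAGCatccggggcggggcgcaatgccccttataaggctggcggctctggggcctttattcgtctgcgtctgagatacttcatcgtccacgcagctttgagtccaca

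The values were MAS5 signals, the array software's summary of a probe set's brightness, taken to log2. A level is comparable for 1 gene between pools of the same duration, but not between genes. Between durations it also depends on how the chips were scaled. A dose slope is the change of log2 signal per 10% of restriction. Adjusted p-values came from limma with Benjamini-Hochberg adjustment over 9520 tested probe sets, and a gene was called where the adjusted p was under 0.05.

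Of 10 adipocyte markers 7 had a probe set, and all 7 were above the filter on low signals. Their pool levels on the log2 scale ran from 6.95 to 7.74 for Plin1, a lipid droplet protein, to between 12.18 and 12.76 for Cfd, the adipokine adipsin, with Lep, Pparg, Slc2a4, Lpl and Fabp4 between. The mean of the 7 ranged from 9.73 to 10.31 and was lowest in the control pool at each duration. Along CR 1 of the 7 rose and 0 fell (median slope 0.0756): Cfd, with 0.10 (limma's adjusted p = 0.0388). Lep had a slope of -0.21 that did not pass (0.0796). Restricted against control, Pparg was called higher (1.075, 0.00821). Markers of other cells and tissues also differed between pools. Exocrine pancreas markers (12 of 14 had a probe set) averaged 11.85 in the 1 week control pool, 6.23 in the 1 week 30% pool and 2.37 to 2.95 in the other 8. Lymphocyte markers (8 of 14) averaged 7.18 and 7.20 in the control pools of 1 week and 1 month, and 2.72 to 7.16 in restricted pools, lowest at 1 week 30%. Macrophage markers (9 of 14) averaged 7.81 in the 1 week control against 7.31 to 7.72 in its restricted pools, and 8.47 in the 1 month control against 7.53 to 7.86. Aif1, a macrophage marker, and Plvap, an endothelial one, fell along CR (limma's adjusted p = 0.0365 and 0.00565). Cd14, another macrophage marker, rose (0.0422), and Gpihbp1, another endothelial one, had a slope of 0.31 that did not pass (0.0519). The means of endothelial, mesothelial and fibroblast markers stayed within 1 log2 unit over the pools. Of 9 fibroblast and matrix markers 1 fell and 0 rose, Fbn1 with -0.24 (limma's adjusted p = 0.0291). The part of adipocyte, macrophage, endothelial, mesothelial and fibroblast markers in the results was not tested. Slopes are also given without the 2 pools of highest pancreas score and with the lymphocyte score as a covariate. Those 2 are the 1 week control and 1 week 30% pools, so leaving them out also removes both ends of the 1 week dose range. In pooled tissue, fewer cells of a type and less RNA per cell cannot be told apart.

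The slope over both durations asked which transferases followed the degree of CR. Mgst2, Gstz1, Gstt2 and Gstt1 rose with restriction, and none of the 10 fell. Thus 4 of 10 were called higher against 5.71% of all tested probe sets, and 0 of 10 lower against 3.69%. At 30% CR the fitted rise was 1.98-fold for Mgst2, 2.08-fold for Gstz1, 2.10-fold for Gstt2 and 1.69-fold for Gstt1. The other 6 had slopes between -0.10 and 0.10. Over the 10 genes the median slope was 0.0975 and 8 were positive, while over all tested probe sets the median was -0.0113 and 45.4% were positive.

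**Figure D1:**
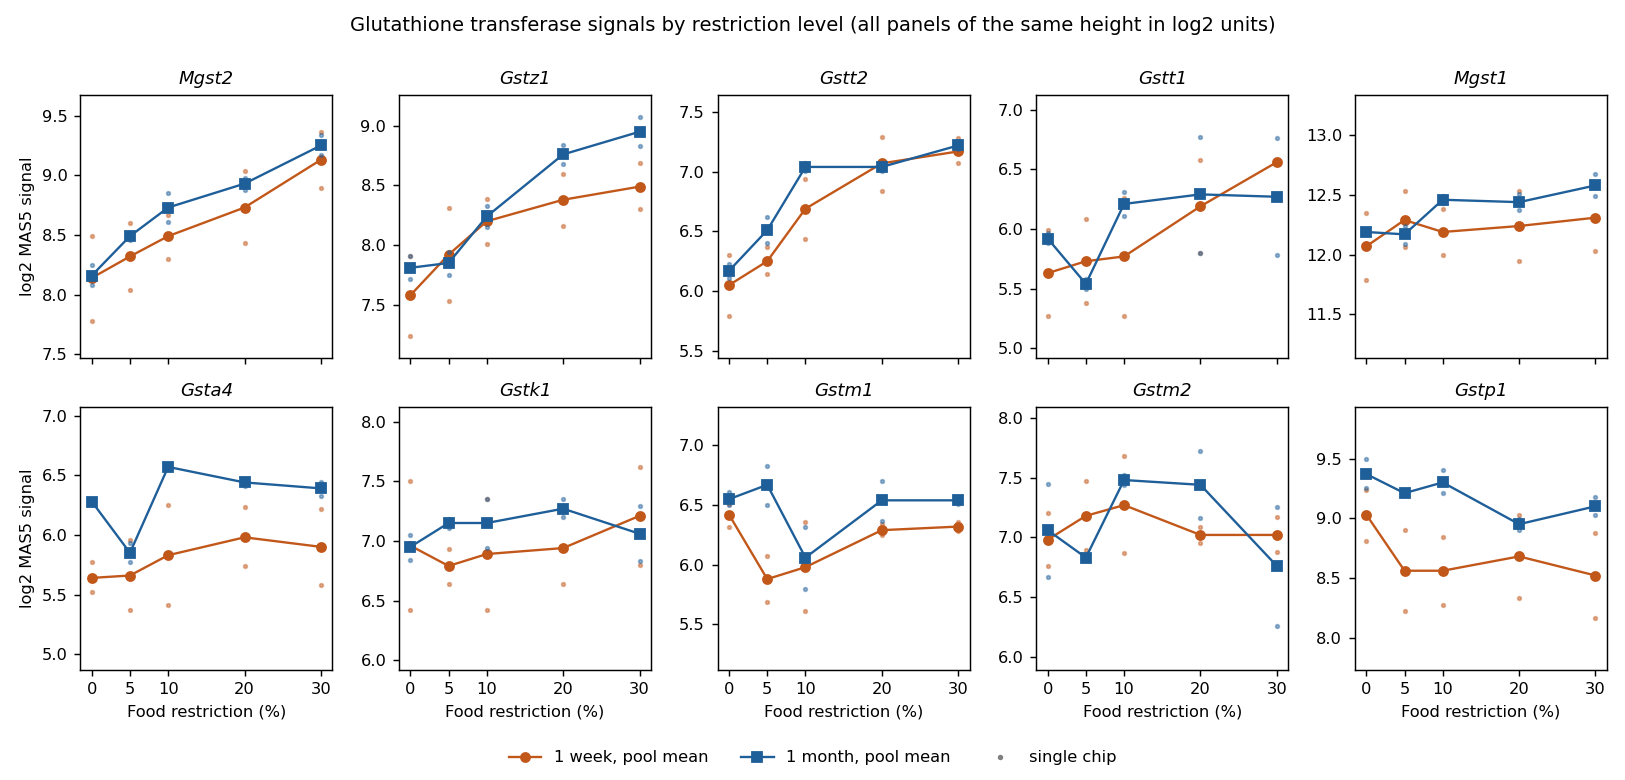
Log2 MAS5 signal (y axis) of the 10 genes against food restriction in percent (x axis), with 1 week in orange circles and 1 month in blue squares. Lines join pool means of 2 chips, small dots are single chips, and every panel has the same height in log2 units; the chips of 1 week sit apart partly because the first and second sets were scaled differently. Mgst2, Gstz1 and Gstt2 lie above control in all 8 restricted pools, and Gstp1 lies below in all 8.

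Mgst2 encodes a microsomal MAPEG transferase that conjugates glutathione to lipid peroxides and to leukotriene A4. At 1 week its log2 signal was 8.14 in control and 8.32, 8.49, 8.73 and 9.13 at 5%, 10%, 20% and 30% CR. At 1 month it was 8.16 in control and 8.49, 8.73, 8.93 and 9.25 at the same levels. Each step of restriction was thus brighter than the one before at both durations, on the first chips and on the second. The slope over both durations was 0.33 ± 0.0288 (SE, 10 pools), with limma's adjusted p = 0.000319, the third smallest p of 9520. It was 0.32 ± 0.0427 at 1 week (adjusted p = 0.0244) and 0.34 ± 0.0427 at 1 month (adjusted p = 0.0210). The slope over both durations was 0.33 without the 2 pancreas-marked pools (adjusted p = 0.0223) and 0.31 with the lymphocyte score (adjusted p = 0.00144).

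Gstz1 encodes maleylacetoacetate isomerase, the step before the last in the breakdown of tyrosine, and also acts on haloacids. Its signal at 1 week was 7.58 in control and 7.92, 8.20, 8.38 and 8.49 at rising levels of CR. At 1 month it was 7.81 in control and 7.85, 8.24, 8.76 and 8.95. The 5% pool of 1 month was 1.02-fold above its control, and the 30% pool 2.20-fold. The slope was 0.35 ± 0.0439 over both durations (SE, 10 pools, adjusted p = 0.00222, limma). At 1 month it was 0.42 ± 0.0584 (adjusted p = 0.0273), and at 1 week 0.29 ± 0.0584 did not pass (adjusted p = 0.0705). The slope was 0.40 without the pancreas-marked pools (adjusted p = 0.0219) and 0.33 with the lymphocyte score (adjusted p = 0.0112).

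Mgst2 and Gstz1 were brighter at every step of CR in all 4 chip series (2 chip numbers at each of 2 durations), which 11 of 9520 probe sets (0.116%) were. In both series of pool means they were among 68 (0.714%). This count was chosen after the values were seen and carries no test.

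Gstt2 and Gstt1 encode theta class transferases, which act on small halogenated compounds and organic hydroperoxides. They lie near each other on chromosome 20 of GRCr8, in the order Gstt2, Gstt4, Gstt1, Gstt3, with Rps28-ps4 after Gstt2. Gstt2 measured 6.05 in control and 6.25, 6.69, 7.07 and 7.17 at rising CR for 1 week. At 1 month it measured 6.17 in control and 6.51, 7.04, 7.04 and 7.22, so the signal was level between 10% and 20%. Its slope was 0.36 ± 0.0531 (SE, 10 pools, adjusted p = 0.00565, limma). It was 0.39 ± 0.0773 at 1 week (adjusted p = 0.0705) and 0.32 ± 0.0773 at 1 month (adjusted p = 0.148). Without the pancreas-marked pools the slope was 0.35 and the call was lost (adjusted p = 0.0938). With the lymphocyte score it was 0.29 (adjusted p = 0.0303).

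Gstt1 had the least even pattern of the 4. Its log2 signal was 5.63 in control and 5.73, 5.77, 6.19 and 6.56 at rising CR for 1 week. At 1 month it was 5.92 in control, 5.54 at 5% CR, and 6.21, 6.29 and 6.27 at higher levels. The 2 chips of the 20% and 30% pools of 1 month differed by 0.97 and 0.98, and in both the first chip lay below its control and the second above. Its chip SD, 0.350, was above the median of all tested probe sets (0.194). The slope was 0.25 ± 0.0564 (SE, 10 pools, adjusted p = 0.0223, limma). The call was lost on the first chips alone (0.20, adjusted p = 0.239), without the 1 week control pool (0.25, adjusted p = 0.0688) and without the 1 week 30% pool (0.21, adjusted p = 0.137). It was also lost without both of these pools (0.21, adjusted p = 0.266) and with the lymphocyte score (0.18, adjusted p = 0.188).

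**Figure D2:**
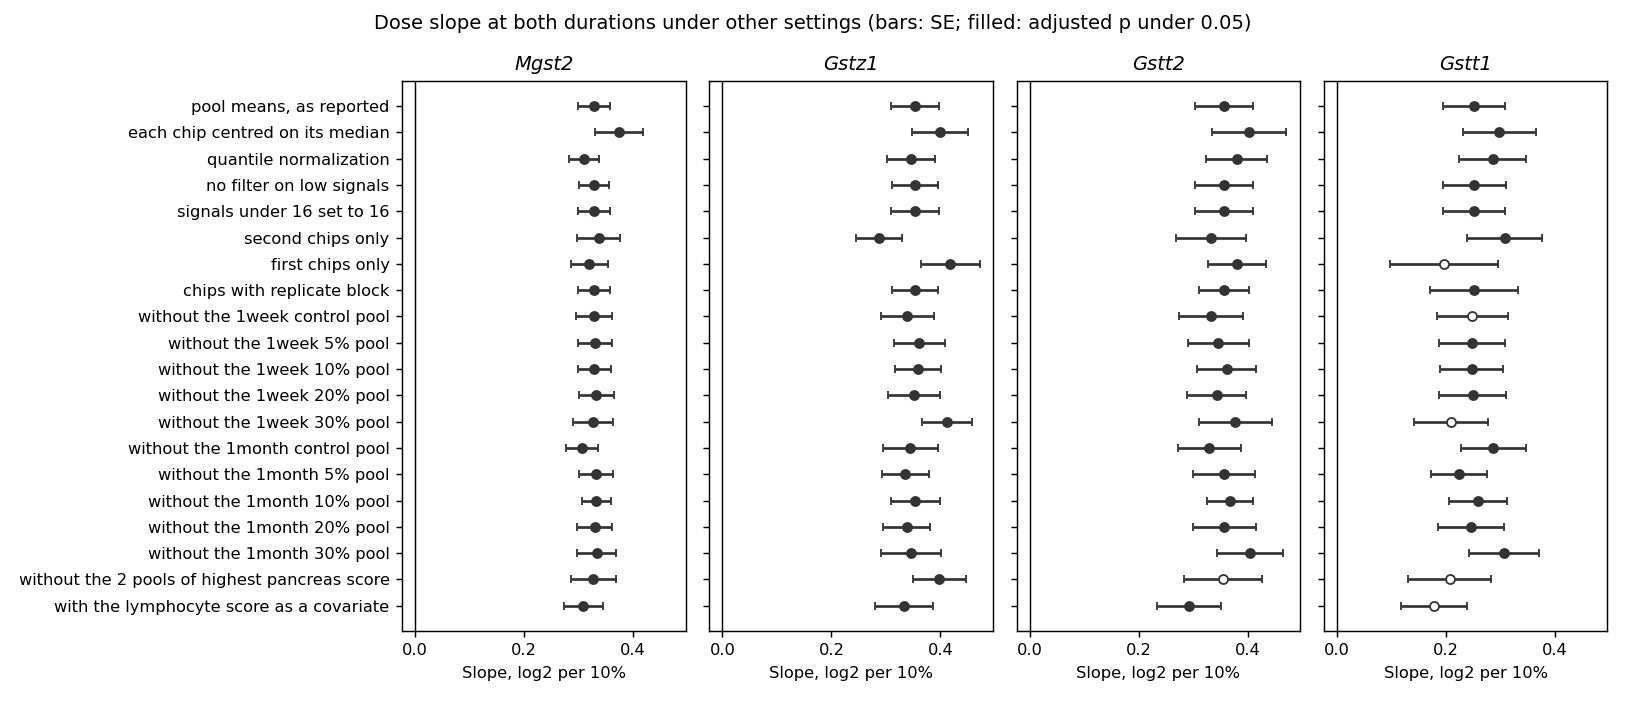
Slope of log2 signal per 10% CR over both durations (x axis) for the 4 called genes, with a row for each way of fitting; points are slopes, bars are SE, and filled points have an adjusted p under 0.05. Mgst2 and Gstz1 stay filled in every row shown, Gstt2 opens without the 2 pancreas-marked pools, and Gstt1 opens in 5 rows.

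The fits by duration asked whether the rise was there after 1 week and after 1 month. At 1 week Mgst2 was called (1 of 10, against 0.221% of tested probe sets), and at 1 month Mgst2 and Gstz1 were (2 of 10, against 0.0945%). These calls rested on 5 pools a series. Without any 1 of the 5 pools of 1 week the adjusted p of Mgst2 at 1 week lay between 0.0556 and 0.464, and without the 1 month 20% pool it was 0.0523. At 1 month both genes lost the call without the 1 month control (adjusted p = 0.236 for each), 5%, 20% or 30% pool, and without the 1 week 20% or 30% pool, and Gstz1 also without the 1 week 5% pool (adjusted p = 0.0717). The slopes themselves moved less: Mgst2 stayed between 0.30 and 0.33 at 1 week and between 0.29 and 0.37 at 1 month when 1 pool was left out.

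The slopes of the 2 durations were compared directly. No member differed (0 of 10, against 0% of tested probe sets). The difference, 1 month minus 1 week, was 0.13 for Gstz1 (95% interval -0.05 to 0.32), 0.02 for Mgst2 (-0.11 to 0.15), -0.07 for Gstt2 (-0.31 to 0.17) and -0.14 for Gstt1 (-0.38 to 0.11). In limma's test all 10 adjusted p were 0.999. At an unadjusted p under 0.05 the count was 0 of 10 members, against 282 probe sets in all (2.96%). The intervals were wide enough to hold differences as large as the slope itself for Gstt1 and close to it for Gstz1 and Gstt2.

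**Figure D3:**
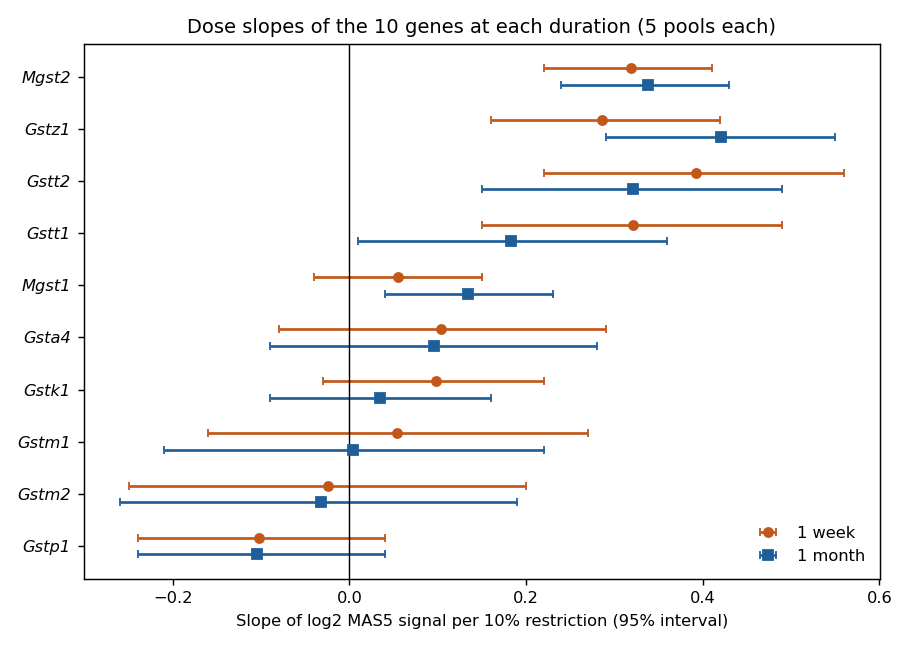
Dose slopes (x axis, log2 signal per 10% CR) with 95% intervals for the 10 genes, from the 5 pools of 1 week (orange circles) and the 5 pools of 1 month (blue squares). The intervals of the 2 durations overlap for every gene, and those of Mgst2, Gstz1, Gstt2 and Gstt1 lie above 0 at both.

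Restricted pools together were then set against controls, which asks for a change at any level rather than along the levels. Mgst2, Gstz1 and Gstt2 lay above the control of their duration in 8 of 8 restricted pools and on 16 of 16 chips, a pattern found in the pools for 15.1% of probe sets. Gstp1 lay below in 8 of 8 pools and on 15 of 16 chips, against 14.8% of probe sets in the pools. Chips are technical repeats of these pools, and the restricted pools of a duration share 1 control. For chips no share over all probe sets was counted. By limma 0 of 10 members were called, against 5.93% of probe sets, and 4 of 10 had an unadjusted p under 0.05, against 29.5% of probe sets. These were Gstp1 with -0.34 ± 0.0984 (SE, adjusted p = 0.0623), Gstt2 with 0.76 ± 0.223 (0.0638), Mgst2 with 0.61 ± 0.204 (0.0875) and Gstz1 with 0.65 ± 0.236 (0.102).

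Gstp1, the pi class transferase, also binds and restrains the stress kinase JNK. It measured 9.03 in control and 8.56, 8.56, 8.68 and 8.52 at rising CR for 1 week. At 1 month it measured 9.37 in control and 9.21, 9.30, 8.95 and 9.10. At 1 week the step lay between control and 5% CR, with little order among the 4 restricted pools. Its slope was -0.10 ± 0.0422 (SE, 10 pools, adjusted p = 0.130, limma). Restricted minus control was -0.23 without the 1 week control pool (adjusted p = 0.462) and -0.45 without the 1 month control pool (0.188). It was -0.23 without the pancreas-marked pools (0.477) and -0.30 with the lymphocyte score (0.252). It passed with quantile normalization (-0.40, adjusted p = 0.0309) but not with chips centred on their medians (-0.22, 0.281), and on the first chips alone (-0.47, 0.0331) but not on the second (-0.21, 0.297). It also passed without the 1 month 5% pool (-0.35, 0.0282) and over chips with a replicate block (-0.34, 0.0162). The last of these fits takes chips, which are technical repeats, as units.

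Mgst1 is a MAPEG transferase that sits in the endoplasmic reticulum and the outer mitochondrial membrane and protects membranes from peroxidation. It measured 12.07 in control and 12.29, 12.19, 12.24 and 12.31 at rising CR for 1 week, and 12.19, 12.17, 12.46, 12.44 and 12.58 in the same order at 1 month. Restricted pools lay above control in 7 of 8 cases, by at most 0.39. The slope was 0.10 ± 0.0316 (SE, 10 pools, adjusted p = 0.0783, limma). It passed without the 1 month 10% pool (adjusted p = 0.0349), over chips taken as units with a replicate block (0.0221) and with dose as a rank (0.0370). It was 0.11 without the pancreas-marked pools (0.309) and 0.08 with the lymphocyte score (0.347).

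Gsta4 encodes the alpha class form with high activity toward hydroxynonenal. It measured 5.64 in control and 5.66, 5.83, 5.98 and 5.90 at rising CR for 1 week. At 1 month the control measured 6.28 and the restricted pools 5.85, 6.57, 6.44 and 6.39, with the 5% pool lowest. The slope was 0.10 ± 0.0556 (SE, 10 pools, adjusted p = 0.252, limma). For Gstk1, the kappa form, pool means ran from 6.79 to 7.27 with a slope of 0.07 ± 0.0393 (adjusted p = 0.279). Without the pancreas-marked pools the slopes were 0.11 for Gsta4 and 0.04 for Gstk1, and with the lymphocyte score 0.04 and 0.02, none of them past the threshold.

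The mu class genes Gstm1 and Gstm2 are neighbours on chromosome 2 and act on aromatic electrophiles and quinones. Gstm1 ranged from 5.88 to 6.67 and lay below control in 7 of 8 restricted pools, with a slope of 0.03 ± 0.0647 (adjusted p = 0.800, limma). Gstm2 ranged from 6.76 to 7.48 and lay above control in 6 of 8, with a slope of -0.03 ± 0.0676 (adjusted p = 0.814). That of Gstm2 changed sign, uncalled, between settings: it was 0.02 with chips centred on their medians, -0.10 on the second chips alone, 0.05 on the first, -0.05 without the pancreas-marked pools and -0.17 ± 0.0489 with the lymphocyte score (adjusted p = 0.119). For Gstm1 it was 0.05 without those pools and 0.10 with the score. Chips of a pool differed more for these genes (SD 0.276 and 0.349) than for Mgst2 (0.120), Gstz1 (0.142), Gstt2 (0.138) or Mgst1 (0.102). A change of the size seen in Gstz1 lay outside their 95% intervals, -0.11 to 0.17 for Gstm1 and -0.18 to 0.12 for Gstm2.

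Pools of 1 month and 1 week at the same level were compared next. All rats entered the experiment at the same age, so those of 1 month were also older when tissue was taken. Duration and age cannot be told apart in this comparison, and the part of age was not tested. Gstp1 (0.52 ± 0.0817, adjusted p = 0.0164) and Gsta4 (0.50 ± 0.103, adjusted p = 0.0355) were called higher at 1 month by limma, 2 of 10 against 3.21% of probe sets, and all 10 differences were positive against 65.1% of probe sets. The chips of the durations had been scaled apart, so this depends on the scale. With each chip centred on its median neither passed (adjusted p = 0.0781 and 0.0926). On the second chips alone the differences were 0.20 and 0.19, and on the first chips alone 0.84 and 0.81. Gstp1 also lost the call without the 5% or the 10% pool of either duration (adjusted p = 0.0519 to 0.0683). Gsta4 lost it without any 1 of the 10 pools except the 1 month 5% pool (adjusted p = 0.0502 to 0.115).

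Among the members, after the mean of each duration was taken out, pool means of Mgst2 correlated at r = 0.94 with Gstt2 and 0.93 with Gstz1, and Gstz1 correlated at 0.90 with Gstt2 and -0.74 with Gstp1 (10 pools). These describe pools that share the same 5 levels of CR. Of 7112 other genes, those closest to Mgst2 were Atosa (r = 0.996), Acsf3 (0.978), which activates malonate in mitochondria, and Ppp1r1a (0.973), an inhibitor of protein phosphatase 1. Atosa measured 4.83, 5.26, 5.65, 6.15 and 6.97 from control to 30% CR at 1 week, and 5.12, 5.60, 6.06, 6.51 and 7.23 at 1 month. Those closest to Gstz1 were Clpx (0.979), part of a mitochondrial protease, Net1 (0.975) and Pnpla8 (0.974), a phospholipase.

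Related genes were taken from lists by function, and the slope over both durations was read in each. In the rest of the transferase and MAPEG family 2 of 11 tested genes rose and 0 fell, with a median slope of 0.0863. The slope largest in size was negative and did not pass, -0.48 for Hpgds (limma's adjusted p = 0.0707). Ptges had -0.31, also uncalled (0.0789). Gstt3, another theta gene of the cluster, rose with 0.23 (adjusted p = 0.0472, limma), and Gsta1, an alpha form, with 0.20 (adjusted p = 0.0115). Gstt3 measured 4.79 in control and 5.56 at 30% CR for 1 week, and 4.95 and 5.38 at 1 month. Gsta3 and Gstm3 were too dim to be tested. Against the 5.71% of all probe sets called higher, these are counts of a short list.

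Enzymes that make and recycle glutathione, the shared cofactor, were read next. In synthesis and turnover 3 of 13 rose and 0 fell (median slope 0.0115). Gss, which completes glutathione, measured 6.72, 6.93, 7.20, 7.68 and 8.22 from control to 30% CR at 1 week and 6.87, 7.57, 8.22, 7.96 and 8.52 at 1 month, a slope of 0.47 ± 0.0650 (adjusted p = 0.00411, limma). Gclm, the modifier of the limiting step, had 0.22 (0.0314), and Lap3, a peptidase that splits cysteinylglycine, had 0.18 (0.0494). Gclc, the catalytic part of the limiting step, had 0.01 and did not pass (0.909). In reduction and use by peroxidases and glutaredoxins 3 of 18 rose and 2 fell (median 0.0511). Gsr, which reduces glutathione disulphide, rose with 0.31 (0.0448) and Prdx6, a peroxiredoxin that uses glutathione, with 0.24 (0.00802). Gpx3, the secreted peroxidase, rose with 0.15 (0.0236) and was outside the rule for named genes. Glrx, a glutaredoxin, fell with a slope of -0.23 (0.0309), and Gpx1, the main cytosolic peroxidase, with -0.19 (0.0184).

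The routes before and after conjugation were smaller lists. In conjugate export and mercapturate formation 1 of 5 rose and 0 fell (median -0.0634), Acy1, which removes the acetyl group from mercapturates, with 0.27 (adjusted p = 0.00384, limma). In phenylalanine and tyrosine breakdown, where Gstz1 acts, 2 of 3 rose and 0 fell (median 0.202). Fah, the enzyme directly after Gstz1, measured 8.68, 9.07, 9.37, 9.42 and 9.59 from control to 30% CR at 1 week and 8.93, 9.14, 9.64, 9.67 and 9.93 at 1 month, a slope of 0.29 ± 0.0457 (0.00682). Qdpr, which recycles the hydroxylase cofactor, had 0.20 (0.0123). In leukotriene and prostaglandin synthesis, the side of Mgst2, 1 of 10 rose and 0 fell (median -0.0383): Cbr1, a carbonyl reductase, with 0.43 (0.00835). Hpgds and Ptges, with the uncalled negative slopes given above, stand in this list too.

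Genes known as NRF2 targets and genes of aldehyde removal completed the set. Of NRF2 and its targets 2 of 13 rose and 0 fell (median 0.0620), Gclm and Ephx1, a microsomal epoxide hydrolase with 0.40 (adjusted p = 0.0268, limma). Hmox1, of the same list, had a slope of -0.32 that did not pass (0.0508). Restricted against control, Hmox1 was called lower (-0.99, 0.0242), and Gclm (0.59, 0.0458) and Ephx1 (1.25, 0.00532) higher. Ephx1 measured 6.85 in control and 7.84 at 5% CR for 1 week, and 7.28 and 8.14 in the same pools of 1 month. Of aldehyde removal 4 of 12 rose and 0 fell (median 0.109): Cbr1, Aldh9a1 with 0.36 (0.00760), Ptgr1 with 0.18 (0.0164) and Akr7a2 with 0.17 (0.0327). Without the 2 pancreas-marked pools, both ends of the 1 week dose range, no gene of these 8 lists passed. Over the whole array 15 probe sets did. With the lymphocyte score as a covariate 7 list entries were called, the most in aldehyde removal (2 of 12) and none in the other transferases or the NRF2 list.

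**Figure D4:**
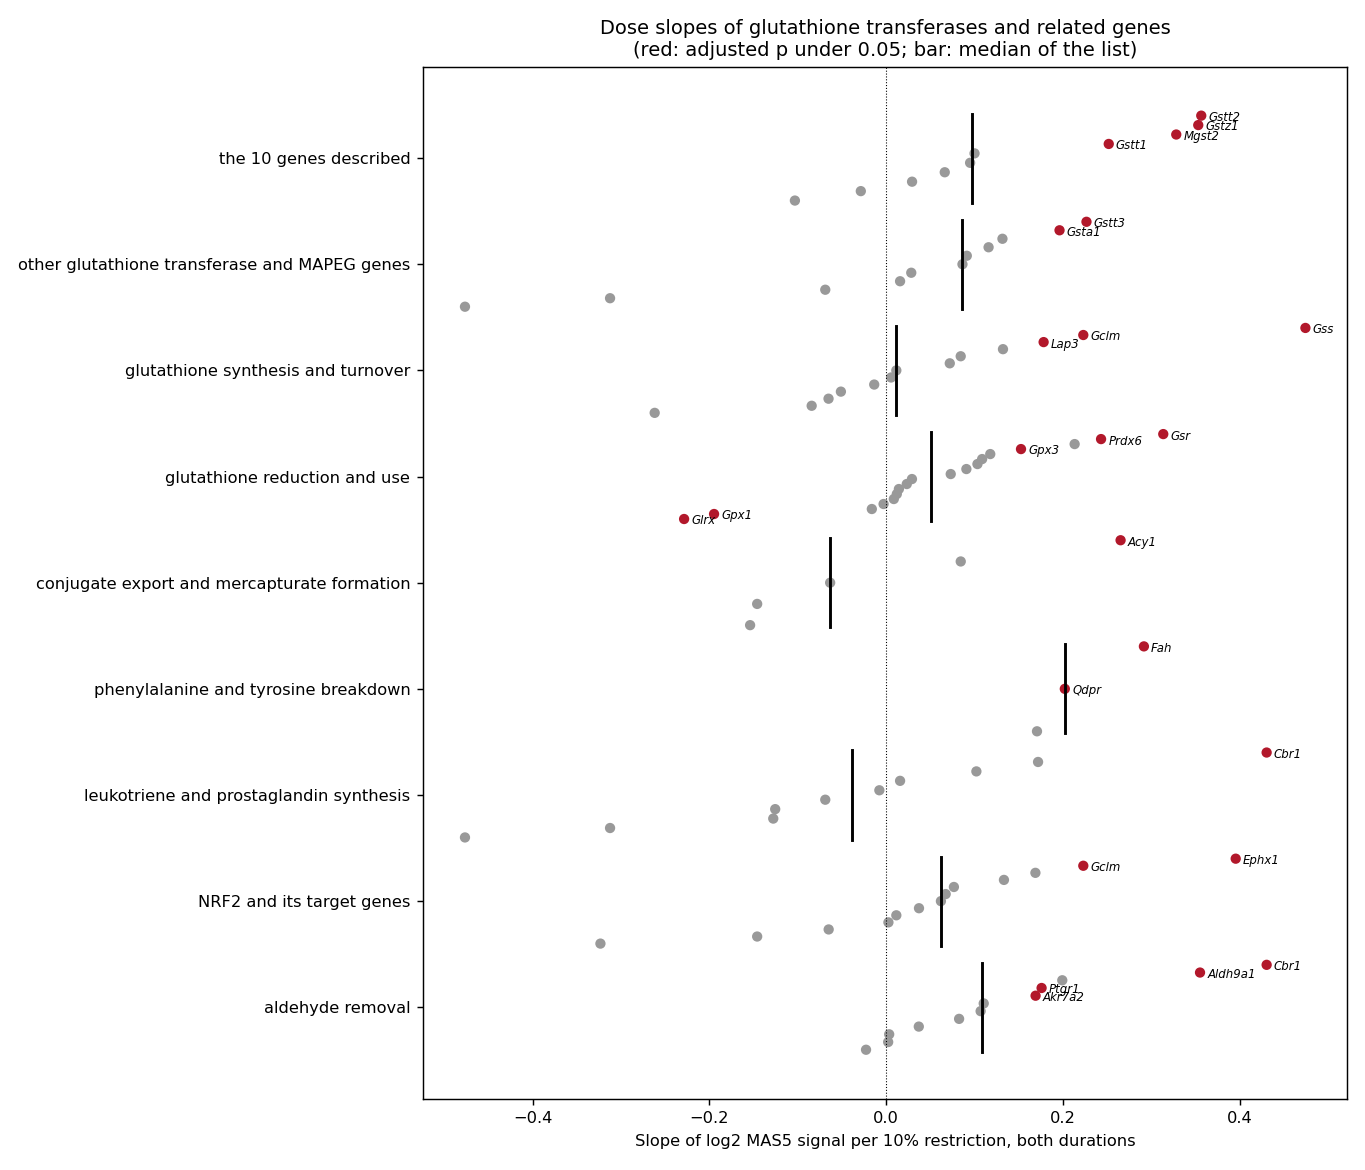
Dose slopes over both durations (x axis, log2 signal per 10% CR) for the 10 genes and for 8 lists of related genes, a point per gene, spread vertically by rank. Red points have an adjusted p under 0.05 and carry their gene symbol, and grey points do not pass. Black bars are list medians, which lie between -0.0634 and 0.202. Of the genes in red, Cbr1 and Gclm stand in 2 lists each.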

How the data were processed

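Intensity values deposited by the authors were MAS5 signals of Affymetrix Rat Expression Set 230 chips, 1 column per chip, made from duplicate chips of pooled RNA. MAS5 is named in the submitters' processing notes. Trimmed mean signals (trim 0.02) were 77.2 and 110.9 to 111.0 for first and second chips at 1 week, and 97.6 to 97.7 and 97.4 to 97.5 at 1 month: the chip sets had been scaled apart. Duplicate chips correlated at 0.971 to 0.982. The authors' change calls were not used here.

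Of 15923 probe sets 57 array controls were left out. The platform table gave 12783 probe sets 1 symbol, 312 several and 2771 none. Signals under 1 were set to 1 and taken to log2, and the filter on dim probe sets kept those whose mean log2 signal reached the 40th percentile (a signal of 22.8), 9520 in all. The brightest probe set stood for a gene. Each pool entered as the mean of its chips. The fits used limma 3.58.1 under R 4.3.3 (lmFit, eBayes with trend, two-sided, Benjamini-Hochberg, 0.05) over 10 pools, with duration as a covariate, for the dose slope, the slopes by duration and their difference, restricted against control, and 1 month minus 1 week with the level as a factor. The fits were also run on simulated pools with independent noise and known changes of either sign, where only the mean error was checked.

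The members, gene lists and marker lists were chosen with earlier results of these data known. All members were named, in each list up to 4 genes past the threshold by size of slope, and the 3 genes most correlated with each of the 2 members of smallest p. Alternatives changed scaling, filter, floor, chips, pools, covariate, probe sets and dose coding. The number of arrays limits the precision. Probe sequences were not used here, so cross-hybridisation between related transferases was not tested. Rats were pooled before hybridisation, so differences between rats enter only as averages of 5.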

Additional observations from a re-analysis of the deposited data

How the results depend on the processing

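Across 21 other settings the dose slope over both durations called 3 to 5 members (main count 4), except without the 2 pools of highest pancreas score, where it called 2, Mgst2 and Gstz1. Those 2 genes passed in every setting run. Some settings left their own signals as they were: averaging probe sets, dropping the filter and raising the floor to 16. Leaving out 1 pool or 1 chip number gave 3 to 5. The number of probe sets called in all moved more, from 895 to 15 without the pancreas-marked pools, 167 with the lymphocyte score and 110 to 1921 without 1 pool. The cause was not tested.

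At 1 week the count was 1, and it was 0 without the pancreas-marked pools or with the lymphocyte score, 3 with dose as a rank, and 0 to 4 when a pool or chip number was left out. At 1 month the count was 2, and it was 0 with chips centred on their medians and without the pancreas-marked pools, and 0 to 3 in leave-outs. The difference of slopes called 0 throughout. Restricted against control called 0, but 1 with quantile normalization (Gstp1) and 0 to 5 in leave-outs, the most without the 1 month 5% pool. The comparison of durations called 2, but 0 with centred chips or without the pancreas-marked pools, 1 with quantile normalization or with no filter, and 0 to 9 in leave-outs: 9 on the first chips alone and 0 on the second, which the separate scaling of the sets moves (median of all probe sets 0.331 and -0.195, against 0.0681).

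Chip numbers mark technical repeats, and at 1 week each number had a scale of its own. Over probe sets, deviations of same-numbered chips correlated at 0.016 to 0.177 at 1 week and -0.087 to 0.225 at 1 month. A correlation does not see a shift common to all probe sets, so apart from scale the numbers paired the pools weakly at most. A fit over chips with a replicate block and the pool as a random block called 5 members for the slope over both durations, 3 at 1 week, 3 at 1 month and 4 for restricted against control, with 1729 probe sets in all for the first. The main fit over pool means called 895. The fit over chips takes technical repeats as units, so its larger counts do not come from more pools.

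No called value changed sign under any setting. Each group is 1 pool, so no group has a spread of its own, and values near the array's background are less certain.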
